A study of Mus musculus with 24 samples.

Results

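The genes described here set how much glucocorticoid reaches its receptors in and around a cell: the carrier Serpina6, the enzymes Hsd11b1 and Hsd11b2, and the receptors Nr3c1 and Nr3c2. They were chosen by symbol with earlier results of these data known, so the choice was not blind to differences between groups. For each gene the probe set of highest mean signal in the deposited table of array values was taken. All 5 were on the array, among 21957 genes with a symbol of their own, and all 5 passed the filter on low signal that left 14411 genes for testing. The RNA came from whole adrenal glands of mice aged 7 months on a mixed sv129-C57Bl/6 background, and the 24 arrays fall into 6 groups of 4. KO mice were Prkar1a fl/fl; cre/+; mTmG/mTmG, with Cre in the Cyp11b2 locus, which is active in the zona glomerulosa, and were females, males gonadectomised (GDX) during the last 2 months, or intact males. WT females were Prkar1a fl/+; cre/+, WT intact males were fl/fl without Cre, and WT GDX males were +/+ without Cre (array 1), +/+; cre/+ (arrays 2 and 3) or fl/+; cre/+ (array 4). All mice carried the mTmG reporter, which was mTmG/+ in WT GDX array 2 and mTmG/mTmG in all others, so the WT groups differed from each other in Cre and in floxed alleles as well as in sex and gonads.

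Glucocorticoids made by the adrenal cortex travel in blood bound to corticosteroid-binding globulin, a serpin without inhibitory activity that is encoded by Serpina6 and made mainly in the liver. Inside cells, the enzyme encoded by Hsd11b1 regenerates active corticosterone from 11-dehydrocorticosterone, using NADPH supplied in the endoplasmic reticulum by H6pd, while the enzyme encoded by Hsd11b2 inactivates corticosterone and so protects the mineralocorticoid receptor in kidney and colon. Nr3c1 encodes the glucocorticoid receptor and Nr3c2 the mineralocorticoid receptor, ligand-activated transcription factors held by chaperones until hormone binds. Prkar1a, the gene deleted in the KO mice, encodes a regulatory subunit of protein kinase A, the kinase through which ACTH drives steroid synthesis.

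The values are log2 RMA signals, a scale on which a difference of 1 is a doubling of signal, and the level of one probe set cannot be set against that of another gene. Array medians lay between 5.197 and 5.294, and arrays of a group correlated with r between 0.989 and 0.995. Prkar1a averaged 7.08 ± 0.32 in KO females against 8.51 ± 0.05 in WT females, 7.60 ± 0.30 in KO GDX males against 8.79 ± 0.16 in WT GDX males, and 7.89 ± 0.69 in KO intact males against 8.82 ± 0.10 in WT intact males (SD, n = 4 each). The arrays of KO and WT did not overlap in any of these pairs, although the change of -0.92 ± 0.23 (SE) in intact males had an adjusted p of 0.16 by limma with Benjamini-Hochberg adjustment over all genes tested, the test used for every adjusted p given here. The arrays measure a whole gland, in which fewer cells of a type and less RNA per cell cannot be told apart.

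Serpina6 had the widest range of the 5 genes and was high in intact males of both genotypes, and low in GDX males and in females. Its locus is chr12:103646630-103657218 (GRCm38.p6). In intact males Serpina6 had log2 signals of 8.12, 8.63, 7.63 and 7.86 in KO and 7.89, 8.16, 7.77 and 7.78 in WT. In GDX males the signals were 6.49, 5.92, 5.92 and 6.14 in KO and 6.12, 5.29, 5.16 and 5.95 in WT. Females had 6.17, 5.84, 5.52 and 5.82 in KO and 5.44, 5.70, 6.01 and 4.999 in WT. Every intact male array lay above every array of the other 4 groups, which overlapped one another.

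**Figure D1:**
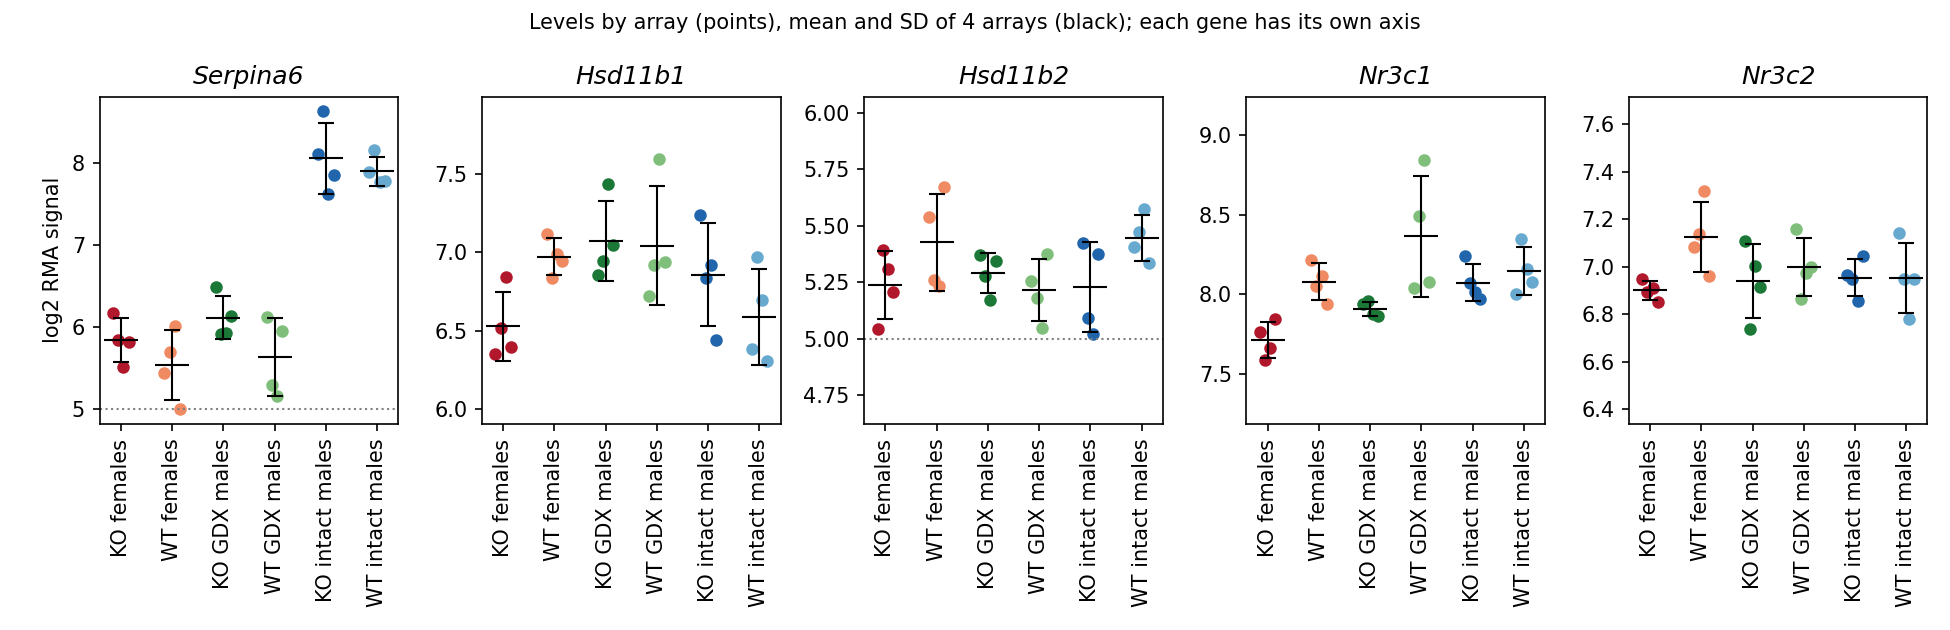
Log2 RMA signal of the 5 genes on each array, with a panel and an axis for each gene; coloured points are arrays, black marks give the mean and SD of 4 arrays, and the dotted line is the filter at 5. Serpina6 stands apart in the intact males of both genotypes, between 7.63 and 8.63, while Hsd11b2 lies close to the filter in every group.

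Serpina6 changed in GDX against intact males by -1.94 ± 0.24 on the log2 scale in KO (3.85-fold lower, adjusted p = 2.76e-05) and by -2.27 ± 0.24 in WT (4.83-fold lower, adjusted p = 5.94e-06). It was the single member called in either comparison, where 15.4% of all genes in KO and 4.50% in WT passed the same test and 19.0% in KO and 9.29% in WT had no overlap between the groups' arrays. By size of change it ranked 33 in KO and 15 in WT among the 14411 genes. Females against intact males differed by -2.22 ± 0.24 in KO (4.67-fold lower, adjusted p = 3.47e-07) and by -2.36 ± 0.24 in WT (5.15-fold lower, adjusted p = 1.22e-06). Here 41.0% of genes in KO and 7.75% in WT were called, 36.6% in KO and 15.1% in WT had no overlap, and Serpina6 ranked 63 and 22 by size. The GDX and the female comparisons use the same intact male arrays and are not independent of each other.

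Female and GDX levels of Serpina6 were next to each other. Females minus GDX males gave -0.28 (95% interval -0.77 to 0.21) in KO and -0.09 (-0.58 to 0.39) in WT, a comparison added after the data had been seen, and neither was called. No KO effect on Serpina6 passed the test. KO minus WT was 0.30 ± 0.24 in females (adjusted p = 0.353), 0.49 ± 0.24 in GDX males (adjusted p = 0.256) and 0.16 ± 0.24 in intact males (adjusted p = 0.942). The 95% interval in GDX males was -0.0021 to 0.97, and 2 of the 4 KO GDX arrays lay below the highest WT GDX array.

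Markers of other tissues were read beside Serpina6. Of 9 liver markers on the array 7 passed the filter, and their mean signal was 5.46 to 5.58 in KO females, 5.32 to 6.24 in WT females, 5.28 to 5.44 in KO GDX males, 5.27 to 5.37 in WT GDX males, 5.22 to 5.37 in KO intact males and 5.18 to 5.38 in WT intact males. Liver markers were not raised in the intact males, where Serpina6 was high, and Fgb and Apoh were below the filter. Albumin (Alb) stood out in WT females, at 4.94, 6.49, 8.82 and 7.21, where Serpina6 was lowest on average. Within that group array 3 had both the highest Alb and the highest Serpina6, at 6.01. The liver marker mean correlated with Serpina6 at r = -0.47 over 24 arrays and at 0.11 within groups. The part of liver RNA in the Serpina6 levels was not tested. The mean of 13 chromaffin cell markers of the medulla was 8.549 to 9.005 in KO females, 9.28 to 9.66 in KO GDX males and 9.64 to 9.87 in KO intact males, and it was 9.13 to 9.50 in WT females, 9.10 to 9.73 in WT GDX males and 9.16 to 9.70 in WT intact males. That mean correlated with Serpina6 at r = 0.62 over 24 arrays and at 0.65 within groups. With that mean as a covariate, the Serpina6 difference of females against intact males was -1.07 in KO, with an adjusted p of 0.111, and -2.16 in WT, with an adjusted p of 3.32e-07, and the GDX differences stayed past the threshold. With the same covariate, KO minus WT for Serpina6 in females was 0.91, with an adjusted p of 0.0145, against 0.30 without it. The medulla marker means of KO females overlapped neither those of WT females nor those of KO intact males. In the fits of those comparisons marker level and group cannot be told apart.

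Ppp4r4, which encodes a regulatory subunit of protein phosphatase 4, lies near Serpina6 on chromosome 12, with Serpina10 between them, and had one of the 3 profiles most like it. Its promoter is shown because this neighbour shares the pattern and because the window holds the hexamer bound, as a half-site, by glucocorticoid and androgen receptors. The sequence is RefSeq's for GRCm38.p6, plus strand, chr12:103532315-103532614, from 250 bases before to 50 bases after the start of the transcript, with the reverse form TGTTCT of the hexamer AGAACA in capitals.
Ppp4r4: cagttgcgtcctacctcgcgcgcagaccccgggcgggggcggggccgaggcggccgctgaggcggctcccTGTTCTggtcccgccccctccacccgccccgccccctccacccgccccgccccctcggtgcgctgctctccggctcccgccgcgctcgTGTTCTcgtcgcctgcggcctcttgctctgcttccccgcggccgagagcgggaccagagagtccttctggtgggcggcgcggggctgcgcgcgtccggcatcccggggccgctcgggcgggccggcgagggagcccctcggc
The hexamer lies at bases 71 to 76 and 159 to 164 of the window, both in the reverse form. The window was chosen with the hexamer known, so its presence there is not a result. AGAACA on either strand was present in 19.0% of 32851 promoter windows of the same length. The promoter windows of Hsd11b1 and Nr3c2, the 2 members with one in the table used, held no AGAACA and no TGACG, the core of the cAMP response element. A match is a description of these letters and not evidence of binding.

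Ppp4r4 averaged 6.57 ± 0.28 in KO intact males and 6.45 ± 0.36 in WT intact males. Lower means were found in GDX males, at 5.66 ± 0.19 in KO and 5.44 ± 0.16 in WT, and in females, at 5.24 ± 0.38 in KO and 5.24 ± 0.12 in WT (SD, n = 4 each). Females against intact males differed in Ppp4r4 by -1.33 ± 0.18 in KO (adjusted p = 5.31e-06) and -1.22 ± 0.18 in WT (adjusted p = 0.000124), and GDX against intact males by -0.91 ± 0.18 in KO (adjusted p = 0.00166) and -1.01 ± 0.18 in WT (adjusted p = 0.00228). Within 250 kb of Serpina6, a window chosen after Ppp4r4 had been noticed, 11 other genes were on the array and 5 passed the filter. The other 4, Otub2, Ddx24, Ifi27 and Serpina1b, passed the test in none of these comparisons, and Serpina10 and Serpina16 were below the filter in signal.

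**Figure D2:**
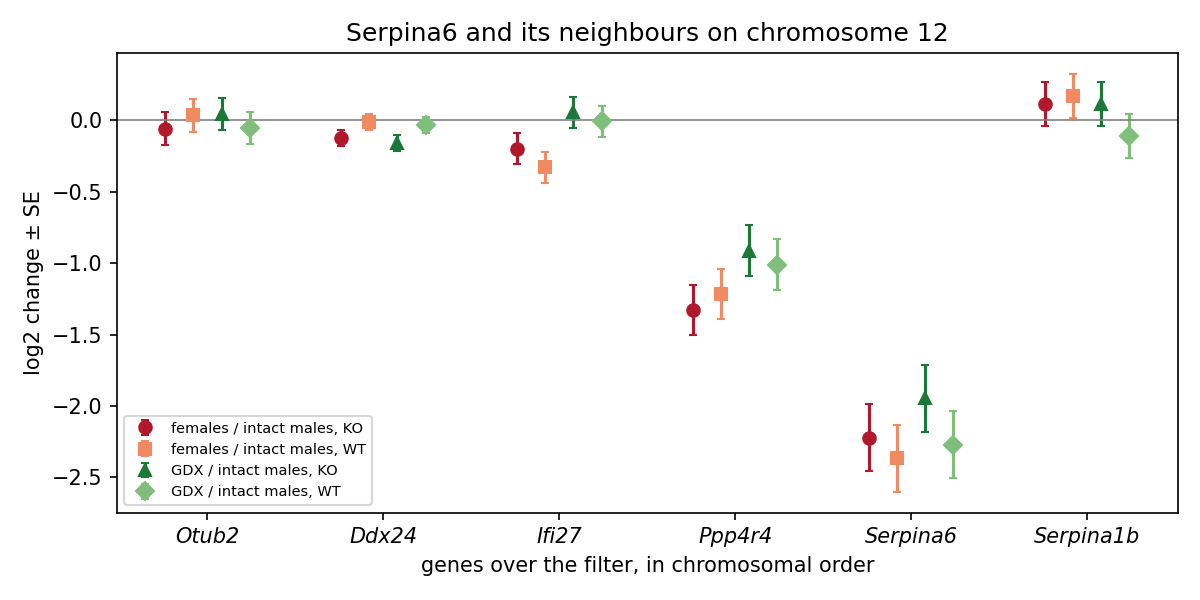
Log2 change ± SE by limma for Serpina6 and the genes within 250 kb of it that passed the filter, in chromosomal order, for females and GDX males against intact males in KO and in WT. Serpina6 and Ppp4r4 lie well below 0 in all 4 comparisons and the other 4 genes lie near 0.

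Over the 24 arrays Serpina6 correlated best, among 13404 genes compared, with Frmd6 (r = 0.94), Ppp4r4 (r = 0.92) and Flrt1 (r = 0.92). Frmd6 encodes a FERM domain protein of the Hippo pathway and Flrt1 a leucine-rich repeat membrane protein. Within groups, after removal of group means, the same correlations were 0.51, 0.47 and 0.48, so much of the likeness lay in the shared difference between intact males and the rest. These values describe 24 arrays that share 6 groups.

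Hsd11b1 (chr1:193221640-193264045) varied between 6.31 and 7.59 and passed the test in none of the comparisons of the study's design. Females had Hsd11b1 signals of 6.36, 6.52, 6.85 and 6.40 in KO and 7.12, 6.84, 6.99 and 6.95 in WT. GDX males had 6.86, 6.94, 7.43 and 7.05 in KO and 6.72, 6.92, 7.59 and 6.94 in WT. Intact males had 7.24, 6.84, 6.92 and 6.44 in KO and 6.38, 6.97, 6.70 and 6.31 in WT. In females 3 of the 4 KO arrays were below all WT arrays and the fourth, at 6.85, overlapped the lowest WT array at 6.84, while the KO and WT arrays of GDX and of intact males overlapped broadly.

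KO minus WT for Hsd11b1 was -0.44 ± 0.19 in females (adjusted p = 0.0707), 0.03 ± 0.19 in GDX males (adjusted p = 0.962) and 0.27 ± 0.19 in intact males (adjusted p = 0.811). GDX against intact males gave 0.21 ± 0.19 in KO (adjusted p = 0.483) and 0.45 ± 0.19 in WT (adjusted p = 0.186). Females against intact males gave -0.33 ± 0.19 in KO (adjusted p = 0.163) and 0.38 ± 0.19 in WT (adjusted p = 0.230). The KO effect in females minus that in intact males was -0.71 ± 0.26, with a 95% interval of -1.26 to -0.17 and an adjusted p of 0.0661, in a comparison where 16% of all genes were called. Females against GDX males, the comparison added later, gave -0.54 ± 0.19 in KO with no overlap between arrays (adjusted p = 0.0449) and -0.07 ± 0.19 in WT (adjusted p = 0.937). In that KO comparison 18.4% of all genes were called and 20.3% had no overlap, against 0.902% called in the WT one, and the Hsd11b1 call held in 1 of 8 fits that left out 1 array of the pair. H6pd, the source of NADPH for the reductase, averaged 7.85 ± 0.13 in KO females and 7.60 ± 0.06 in WT females (SD, n = 4 each) and rose by 0.26 ± 0.09 (adjusted p = 0.0272), the opposite sign to Hsd11b1.

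Adipocyte marker levels correlated with Hsd11b1 across arrays. All 9 such markers on the array passed the filter, and 6 of 9 fell in KO against WT females, where 18.7% of all genes fell. None of the 9 was called in KO against WT intact males, where 0.111% of all genes were. There the marker mean averaged 8.40 in KO and 8.67 in WT and Hsd11b1 had the opposite order. Their mean signal was 7.58 to 8.34 in KO females and 8.65 to 9.60 in WT females, 8.75 to 9.25 in KO GDX males and 8.49 to 10.08 in WT GDX males, and 7.63 to 8.90 in KO intact males and 8.06 to 9.32 in WT intact males. Across the 24 arrays that mean correlated with Hsd11b1 at r = 0.75, and at 0.70 within groups. With it as a covariate, KO minus WT for Hsd11b1 in females was 0.10 (adjusted p = 0.766). The marker means of KO and WT females did not overlap, so marker level and genotype cannot be told apart in that fit. The genes with profiles most like Hsd11b1 were Pde3b (r = 0.82), a phosphodiesterase of insulin-responsive cells, Ntrk2 (r = 0.81), the BDNF receptor, and Pck1 (r = 0.80), which serves gluconeogenesis and glyceroneogenesis.

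**Figure D3:**
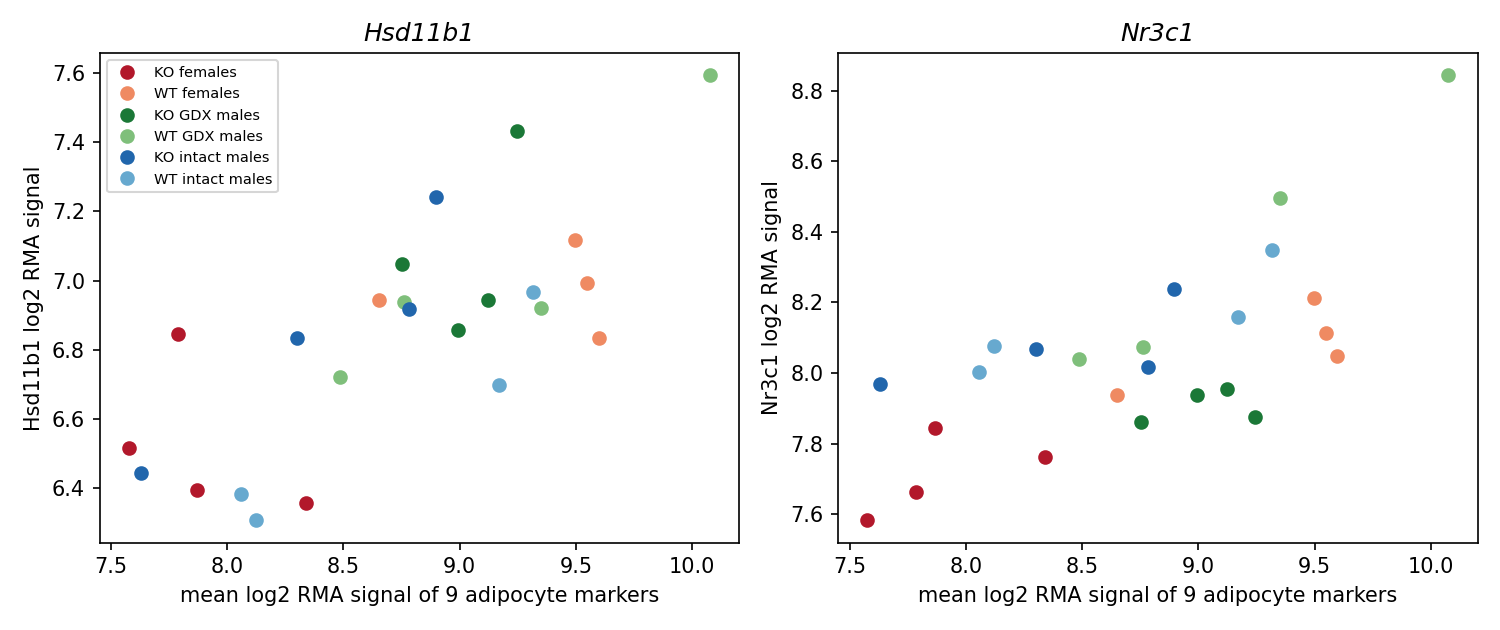
Log2 RMA signal of Hsd11b1 and Nr3c1 on each of the 24 arrays against the mean signal of 9 adipocyte markers on the same array, coloured by group. Both genes are higher on arrays with more adipocyte signal. KO females lie toward the low end of the marker axis, at 7.58 to 8.34, a range that some intact male arrays share.

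Hsd11b2 (chr8:105518746-105523988) was dim in every group. KO females had 5.04, 5.39, 5.31 and 5.21 and WT females 5.54, 5.26, 5.23 and 5.67. KO GDX males had 5.37, 5.28, 5.17 and 5.34 and WT GDX males 5.25, 5.18, 5.05 and 5.37. KO intact males had 5.42, 5.09, 5.02 and 5.38 and WT intact males 5.40, 5.47, 5.57 and 5.34. All 24 arrays thus lay between 5.02 and 5.67, just over the filter at 5, and the arrays of every pair of groups compared overlapped. KO minus WT was -0.19 ± 0.11 in females (adjusted p = 0.194), 0.08 ± 0.11 in GDX males (adjusted p = 0.752) and -0.22 ± 0.11 in intact males (adjusted p = 0.67), and no comparison between GDX and intact males or between the sexes passed the test. At so low a signal a difference may be understated, so these values do not show that Hsd11b2 is alike between the groups. Of 10 kidney tubule markers 8 were below the filter, and Aqp2 and Slc34a1 averaged 5.32 and 5.16.

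Nr3c1 was lower in KO than in WT females and in KO than in WT GDX males. The locus is chr18:39410545-39519421. Nr3c1 signals in females were 7.76, 7.58, 7.66 and 7.84 in KO and 8.21, 8.05, 8.11 and 7.94 in WT. GDX males had 7.94, 7.95, 7.87 and 7.86 in KO and 8.04, 8.49, 8.84 and 8.07 in WT, and intact males had 8.24, 8.07, 8.02 and 7.97 in KO and 8.001, 8.35, 8.16 and 8.08 in WT. All KO arrays lay below all WT arrays in females, where the arrays of 32.8% of all genes did not overlap, and in GDX males, where those of 9.62% did not, and KO and WT overlapped in intact males.

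KO minus WT for Nr3c1 was -0.37 ± 0.13 in females (1.29-fold lower, adjusted p = 0.0302), -0.46 ± 0.13 after GDX (1.37-fold lower, adjusted p = 0.0422) and -0.07 ± 0.13 in intact males (adjusted p = 0.945). Nr3c1 was the 1 member of 5 called in females, where 32.6% of all genes were called, and the 1 called in GDX males, where 4.23% were; none was called in intact males, where 0.111% of genes were. The KO effect in females minus that in intact males was -0.29 ± 0.18 (adjusted p = 0.287) and in GDX minus intact males -0.38 ± 0.18 (adjusted p = 0.517, with 0.0278% of genes called), so the effects were not shown to differ. Among KO mice, Nr3c1 was also lower in females than in intact males, with a difference of -0.36 ± 0.13 (adjusted p = 0.0263) and no overlap. This Nr3c1 call ended in 3 of 8 fits that left out 1 array, without KO female arrays 2 or 3 or KO intact male array 1 (adjusted p up to 0.0829), and with the adipocyte covariate (-0.21, adjusted p = 0.0568) or the medulla covariate (-0.67, adjusted p = 0.132). The medulla marker means of KO females and KO intact males did not overlap, so marker level and sex cannot be told apart in that fit. With Serpina6, the Nr3c1 call made 2 of 5 members called among KO females and intact males. Of all genes, 41.0% were called there and 36.6% had no overlap. In WT mice the same difference was -0.07 ± 0.13 (adjusted p = 0.809).

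Both KO calls for Nr3c1 were close to the threshold. In females the call ended in 5 of 8 fits that left out 1 array, without KO arrays 2 or 3 or WT arrays 1, 2 or 3 (adjusted p up to 0.0868), and in GDX males it ended in 5 of 8, without KO arrays 2, 3 or 4 or WT arrays 2 or 3 (adjusted p up to 0.137). The higher WT GDX signals, 8.49 and 8.84 on arrays 2 and 3, came from the mice with Cre and no floxed allele. Arrays 1 and 4, of other genotypes, read 8.04 and 8.07. The part of the mixed WT genotype in the Nr3c1 change was not tested. Without WT GDX array 3, the array at 8.84, the Nr3c1 change in GDX males was -0.30, against -0.46 with it. That array also had the highest adipocyte marker mean, 10.08, and across 24 arrays the marker mean correlated with Nr3c1 at r = 0.71, and at 0.80 within groups. With the marker mean as a covariate, KO minus WT for Nr3c1 was 0.04 in females, with an adjusted p of 0.833, and -0.42 in GDX males, with an adjusted p of 0.00779. The marker means of KO and WT females did not overlap, so marker level and genotype cannot be told apart in the female value.

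Other cell markers also differed where Nr3c1 did. The mean of 5 zona fasciculata markers correlated with Nr3c1 at r = -0.75 over 24 arrays and at -0.51 within groups, and was 12.002 to 12.09 in KO females against 11.61 to 11.73 in WT females and 11.89 to 12.01 in KO GDX males against 11.61 to 11.83 in WT GDX males. Of these markers, Mrap, Abcb1b and Star rose in KO against WT females, by 1.21, 0.67 and 0.12, where 13.9% of all genes rose. Cyp11b1 and Mc2r, at -0.11 and -0.12, were not called there. In KO against WT GDX males only Mrap was called, at 0.76, where 4.23% of all genes were. All 9 zona glomerulosa markers tested fell in KO against WT females, where 18.7% of all genes fell and 13.9% rose. Their means were 7.76 to 8.19 in KO and 9.54 to 9.85 in WT. In KO against WT GDX males 2 of 9 fell, where 4.23% of all genes were called. Of 10 capsule and mesenchymal markers 7 fell in KO against WT females, with means of 6.97 to 7.25 in KO and 7.95 to 8.09 in WT. Of 12 macrophage markers 4 rose in KO against WT females, with means of 7.58 to 8.65 in KO and 7.09 to 7.47 in WT. The part of these cell markers in the Nr3c1 differences was not tested.

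The genes with profiles most like Nr3c1 were Ralgapa2 (r = 0.93), a subunit of the GTPase-activating complex for Ral, Slc16a1 (r = 0.91), a monocarboxylate transporter, and Cep85l (r = 0.90). Unlike those of Serpina6, these correlations were nearly as high within groups, at 0.85, 0.88 and 0.81. Among the members themselves the highest correlation over 24 arrays was that of Hsd11b1 with Nr3c1, at 0.52 and at 0.61 within groups, and the other pairs lay between -0.30 and 0.07. Within groups Serpina6 and Nr3c2 correlated at 0.59.

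Nr3c2 (chr8:76898083-77245012) had the narrowest differences. Nr3c2 signals were 6.95, 6.89, 6.91 and 6.85 in KO females and 7.08, 7.14, 7.32 and 6.96 in WT females, with no overlap but with the nearest arrays at 6.95 and 6.96. They were 7.11, 6.74, 7.00 and 6.91 in KO GDX males and 7.16, 6.86, 6.97 and 7.00 in WT GDX males. They were 6.97, 6.95, 6.86 and 7.04 in KO intact males and 7.14, 6.95, 6.78 and 6.95 in WT intact males. Only in females did the genotypes separate, in a comparison where the arrays of 32.8% of all genes did not overlap. KO minus WT for Nr3c2 was -0.22 ± 0.09 in females (adjusted p = 0.0529, short of a call), -0.06 ± 0.09 in GDX males (adjusted p = 0.771) and 0.00044 ± 0.09 in intact males, with a 95% interval of -0.18 to 0.18. No difference between GDX and intact males or between the sexes passed the test. A second probe set of Nr3c2 read 3.52 to 3.88 on all arrays, below the filter, and another, shared with Gm10649, was not used. Neither was lower in KO females: the second averaged 3.72 in KO and 3.70 in WT, and the shared one 5.41 in KO and 5.29 in WT.

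**Figure D4:**
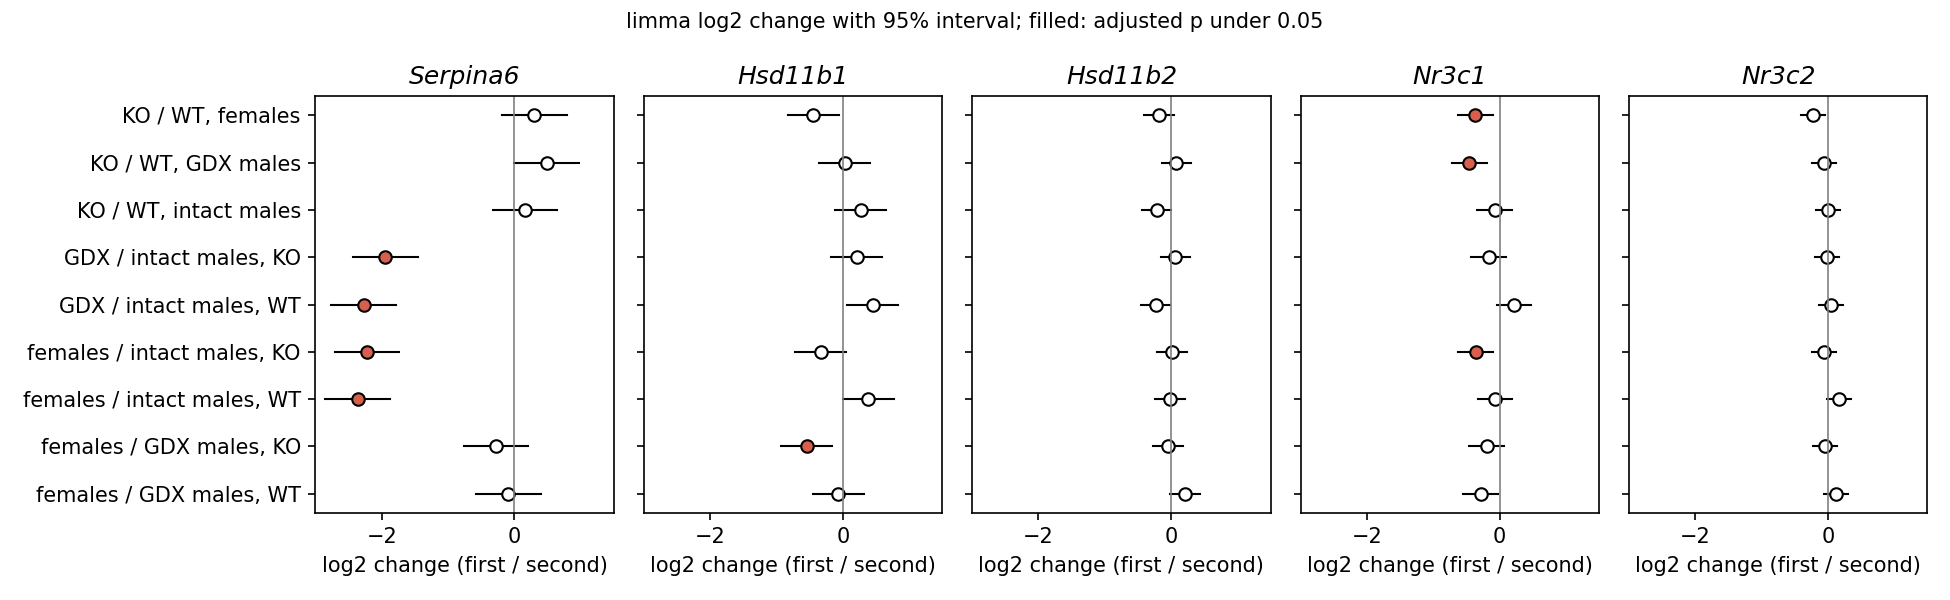
Log2 change by limma with its 95% interval for the 5 genes, with a panel for each gene and a row for each comparison; filled points have an adjusted p under 0.05. Serpina6 has changes of -2.36 to -1.94 in GDX males and in females against intact males, and Nr3c1 is lower in KO than in WT females and GDX males.

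The other corticosteroid enzymes and efflux pumps were led by Akr1d1, the steroid 5-beta-reductase that begins the breakdown of corticosteroids, with a pattern opposite to that of Serpina6. Akr1d1 had signals of 11.31, 11.81, 11.73 and 11.63 in KO females and 11.93, 11.999, 11.91 and 12.08 in WT females. GDX males had 11.35, 11.33, 11.58 and 11.67 in KO and 11.36, 11.65, 11.34 and 11.52 in WT, and intact males had 4.13, 4.55, 5.36 and 7.99 in KO and 8.38, 5.08, 4.51 and 4.27 in WT. Intact males were thus far lower, and 1 KO and 1 WT array lay near 8 while the other 6 lay near or below the filter.

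Akr1d1 was higher in females than in intact males by 6.12 ± 0.69 in KO (adjusted p = 7.42e-07) and 6.42 ± 0.69 in WT (adjusted p = 3.38e-06). In GDX against intact males it rose by 5.98 ± 0.69 in KO (adjusted p = 1.83e-05) and 5.91 ± 0.69 in WT (adjusted p = 2.57e-05). The X-zone is an inner cortical layer that regresses in males. Of 4 X-zone markers tested, Akr1c18, Cyp2f2 and Thrb rose in GDX against intact males, Akr1c18 most, by 4.003 in KO and 8.11 in WT, while Susd3 fell, with changes of -1.80 in KO and -1.85 in WT, and the same 3 were higher and Susd3 lower in females than in intact males. The mean of the 4 was 8.84 to 9.53 in KO females, 8.14 to 8.99 in WT females, 8.57 to 8.98 in KO GDX males, 8.47 to 9.21 in WT GDX males, 6.76 to 8.19 in KO intact males and 5.94 to 6.32 in WT intact males. Of all genes, 15.4% in KO and 4.50% in WT were called in GDX against intact males, and 41.0% and 7.75% in females against intact males. The X-zone marker mean correlated with Serpina6 at r = -0.82 over 24 arrays and at -0.16 within groups. The part of the X-zone markers in the levels of Akr1d1 and Serpina6 was not tested.

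Of 10 genes listed for corticosteroid metabolism and efflux, 5 were tested, and 2 rose and 1 fell in KO against WT females, where 13.9% of all genes rose and 18.7% fell. None passed the test in KO against WT GDX or intact males, where 4.23% and 0.111% of all genes did. Abcb1b, a steroid efflux pump of the adrenal cortex, rose in females by 0.67 ± 0.09 (adjusted p = 9e-06), and its relative Abcb1a fell by 0.32 ± 0.11 (adjusted p = 0.0352). The Abcb1b effect in females exceeded that in intact males by 0.72 ± 0.13 (adjusted p = 0.000932). H6pd was the other gene that rose. The median change of the 5 genes in females was 0.11, against -0.02 over all genes tested.

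Of the chaperones that hold the receptors, 12 of 16 listed were tested, and 2 rose and 1 fell in KO against WT females, a smaller share than the 32.6% called among all genes. Fkbp5, a cochaperone that lowers the affinity of the glucocorticoid receptor for hormone and is itself induced by it, averaged 7.80 ± 0.29 in KO females and 7.28 ± 0.10 in WT females (SD, n = 4 each) and rose by 0.52 ± 0.16 (adjusted p = 0.0134). Bag1 rose by 0.22 ± 0.08 (adjusted p = 0.0475) and the cyclophilin Ppid fell by 0.29 ± 0.08 (adjusted p = 0.00565). None was called in KO against WT GDX or intact males, where 4.23% and 0.111% of all genes were. Fkbp5 changed in those 2 comparisons by 0.36 ± 0.16 (adjusted p = 0.195) and 0.46 ± 0.16 (adjusted p = 0.446). The median change in females was -0.05.

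Of the receptor coregulators, 14 of 16 listed were tested, and 8 fell, none rose and 6 did not pass the test in KO against WT females, where 18.7% of all genes fell. The list's median change was -0.29 against -0.02 over all genes, and among the 6 Smarca4 had a change of 0.08 and Nr0b2 of 0.10. Ncoa1, the p160 coactivator also known as SRC-1, fell by 0.39 ± 0.07 (adjusted p = 0.000186), with averages of 8.46 ± 0.10 in KO females and 8.85 ± 0.03 in WT females (SD, n = 4 each). Nr2f2, an orphan receptor also on the list of capsule markers, fell by 0.47 ± 0.08 (adjusted p = 9.11e-05), the corepressor Nrip1 by 0.44 ± 0.09 (adjusted p = 0.000748), and the coactivator Ppargc1a by 1.16 ± 0.34 (adjusted p = 0.0127). Ppargc1a was dim, at 3.83 to 4.17 in KO females, below the filter at 5, and 4.66 to 5.71 in WT females. Ppargc1a also belongs to brown fat metabolism, and the adipocyte, capsule, zona glomerulosa and macrophage marker levels given above differ between the same arrays; their part in the coregulator changes was not tested. None of the 14 was called in KO against WT GDX or intact males, where 4.23% and 0.111% of all genes were. The KO effect was lower in females than in intact males for 4 of the 14. In that comparison 16% of all genes were called, in either direction. The differences were -0.42 ± 0.10 for Ncoa1 (adjusted p = 0.00689) and -0.52 ± 0.11 for Ncoa3 (adjusted p = 0.0048). They were -0.26 ± 0.08 for Ep300 (adjusted p = 0.0247) and -0.59 ± 0.11 for Nr2f2 (adjusted p = 0.00131).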

How the data were processed

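The authors deposited log2 signals made with RMA (background correction, normalization and summary per probe set), per the submitters' processing notes; the software behind it, its version and the annotation build are not given in the sources used. Per the labels, 500 ng of total RNA was made into biotinylated cDNA with the GeneChip WT PLUS kit. The table holds 32202 probe sets for 24 arrays, of which 22943 have 1 symbol, 1731 several and 7528 none; those with 1 symbol were used, taking the probe set of highest mean per gene. Genes over log2 5 in at least 4 arrays were kept (14411). One limma 3.58.1 model (R 4.3.3) with 6 group means was fitted over all arrays (18 residual degrees of freedom), with eBayes defaults and Benjamini-Hochberg adjustment over all kept genes; an adjusted p under 0.05 is a call. The fitting was tested on simulated data. Each array is a labelled biological replicate. The 5 genes, the 16 gene lists (163 of 185 genes matched) and the tests were chosen with earlier results of these data known. Beyond the 5 genes, each list gave up to 4 called genes of largest change per KO comparison, and each member the 3 genes of most similar profile (Pearson's r); Akr1d1, the interaction values and the neighbours of Serpina6 were named after their values were seen. Loci and promoters are RefSeq's for GRCm38.p6. RMA compresses low signals, so changes of dim genes are understated.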

Additional observations from a re-analysis of the deposited data

How the results depend on the processing

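Of 1059 values of the 5 genes under other settings or with 1 array left out, 943 kept their direction and side of the threshold, 31 lost a call, 17 gained one and 68 changed sign. The fall of Serpina6 in GDX against intact males, in KO and WT, and in WT females against intact males was called in 10 of 10 settings and 8 of 8 leave-one-out fits; in KO females against intact males it was called in 9 of 10 and 8 of 8. The number of the 5 genes called moved elsewhere. For KO against WT females (1 gene) it was 2 with a filter at 6, 2 with only those groups fitted, 3 with array weights, 3 with the replicate block, 2 with the medulla covariate and 0 with the adipocyte covariate; for KO against WT GDX males (1) it was 0 with no filter, quantile normalization, only those groups or the replicate block. It was 2 with the adipocyte covariate for GDX against intact KO males (1). For females against intact males it was 0 with the medulla and 1 with the adipocyte covariate in KO (2), and 2 with array weights in WT (1). It was 1 with only those groups, array weights or the replicate block for the KO effect in females minus intact males (0), and 0 with no filter, quantile normalization or either covariate for KO females against KO GDX males (1). With 1 array left out these counts ranged from 0 to 2 for KO against WT females, 0 to 1 for KO against WT GDX males, 1 to 2 for KO females against intact males, 0 to 1 for the female minus male KO effect and 0 to 1 for KO females against GDX males. Other causes were not tested, and fitting only some groups leaves fewer arrays to estimate the spread. Where the marker means of the groups compared do not overlap, a fit with that covariate cannot tell marker level and group apart.

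The replicate block, which fits the replicate number in the labels, gave adjusted p-values of 0.0412 for Hsd11b1, 0.0466 for Nr3c2 in KO against WT females and 0.0527 for Nr3c1 in KO against WT GDX males, and 0.0409 for the female minus male KO effect on Hsd11b1. Arrays with the same number did not deviate together: their correlations ran from -0.31 to 0.24 over 60 pairs, and 4 of 24 arrays correlated best with their own number.

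Apart from Nr3c1 in KO against WT females with the adipocyte covariate, the sign changes were of values without a call. With that covariate, KO minus WT in females was 0.10 for Hsd11b1 and 0.043 for Nr3c1; KO minus WT in intact males was 0.0014 for Nr3c1 and -0.015 for Nr3c2; GDX minus intact KO males was -0.025 for Hsd11b1 and 0.024 for Nr3c2; females minus intact males was -0.051 in KO and 0.058 in WT for Hsd11b2; the female minus male KO effect was -0.11 for Hsd11b2 and 0.041 for Nr3c1; and KO females minus KO GDX males was 0.13 for Nr3c1. With the medulla covariate, KO minus WT in intact males was -0.19 for Serpina6, 0.019 for Nr3c1 and -0.077 for Nr3c2; Nr3c2 was 0.077 in GDX minus intact KO males, 0.20 in KO females minus intact males, 0.0088 for the GDX minus intact KO effect and 0.12 in KO females minus GDX males; Hsd11b2 was -0.14 in KO females minus intact males and -0.095 for the female minus male KO effect; and Serpina6 in females minus GDX males was 0.47 in KO and 0.0066 in WT. Quantile normalization gave, for Nr3c2 in KO, 0.013 in GDX and 0.013 in females minus intact males and 0.00013 in females minus GDX males, and 0.0051 for Hsd11b2 in WT females minus intact males. Array weights gave 0.0035 for Nr3c2 in GDX minus intact KO males and 0.039 for Serpina6 in WT females minus GDX males, and the mean of all probe sets gave -0.010 and 0.016 for Nr3c2 in KO minus WT and GDX minus intact KO males.

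With 1 array left out, the values whose sign changed had these ranges. Serpina6 ranged from -0.037 to 0.33 for the female minus male KO effect, -0.25 to 0.085 for females minus GDX males in WT and -0.031 to 0.30 for KO minus WT in intact males. Hsd11b1 ranged from -0.094 to 0.21 for KO minus WT in GDX males and -0.18 to 0.11 for females minus GDX males in WT. Hsd11b2 ranged from -0.10 to 0.043 for females minus intact males in WT, -0.038 to 0.11 for the female minus male KO effect, -0.10 to 0.013 for females minus GDX males in KO, -0.059 to 0.076 for females minus intact males in KO and -0.0065 to 0.13 for GDX minus intact males in KO. Nr3c2 ranged from -0.057 to 0.063 for KO minus WT in intact males, -0.012 to 0.11 for GDX minus intact males in WT, -0.069 to 0.055 for GDX minus intact males in KO, -0.11 to 0.016 for females minus GDX males in KO, -0.11 to 0.0092 for KO minus WT in GDX males and -0.12 to 0.0088 for the GDX minus intact KO effect. None of them was a call.

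Whole glands, 4 arrays a group and WT groups of unlike genotype limit these values. Hsd11b2, and Serpina6 outside intact males, were close to the filter, where signal over background is small, and Hsd11b2 could not be tested with the filter at 6.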

Other observations

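Of the target genes of the glucocorticoid receptor, 15 of 16 listed were tested, and 8 rose and 1 fell in KO against WT females, where 13.9% of all genes rose and 18.7% fell, with a median change of 0.50 against -0.02 over all genes. The largest were Lcn2, which encodes lipocalin-2, at 1.14 ± 0.32 (SE, adjusted p = 0.00875 by limma), Ddit4, an inhibitor of mTOR signalling, at 0.73 ± 0.15 (adjusted p = 0.000802), and the cell cycle inhibitor Cdkn1a at 0.65 ± 0.21 (adjusted p = 0.0228). Tsc22d3, which encodes the glucocorticoid-induced leucine zipper GILZ, averaged 7.30 ± 0.18 in KO females and 6.68 ± 0.12 in WT females (SD, n = 4 each), a rise of 0.61 ± 0.13 (adjusted p = 0.000799). Klf9 fell by 0.28 ± 0.09 (adjusted p = 0.0174). In KO against WT GDX males 3 rose, Zbtb16 by 0.86 ± 0.13 (adjusted p = 0.0011), Mt1 by 0.63 ± 0.12 (adjusted p = 0.00677) and Ddit4 by 0.54 ± 0.15 (adjusted p = 0.0445), and in intact males 1 rose, Zbtb16 by 0.81 ± 0.13 (adjusted p = 0.0103). Of all genes, 4.23% were called in KO against WT GDX males and 0.111% in intact males. Zbtb16 changed less in females than in intact males, by -0.65 ± 0.19 (adjusted p = 0.0226). Several of these genes answer to other signals too, and the list does not measure hormone.

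Of 7 tested genes listed for the mineralocorticoid receptor, 2 were called in KO against WT females, a share near the 32.6% of all genes called: the sodium pump subunit Atp1b1 fell by 0.64 ± 0.17 (adjusted p = 0.00557) and Ndrg2 by 0.34 ± 0.09 (adjusted p = 0.00508). None of the 7 was called in KO against WT GDX or intact males, where 4.23% and 0.111% of all genes were. The KO effect on Atp1b1 in females minus that in intact males was -1.13 ± 0.24 (adjusted p = 0.00359). Among the clade A serpins related to Serpina6, 4 were tested and 1 was called in KO against WT females, Serpina1e, which fell by 0.62 ± 0.19 (adjusted p = 0.0172).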
